A study of Nematostella vectensis with 16 samples.

Results

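A group of 119 genes stood high together in 6 of 16 RNA libraries of the starlet sea anemone, Nematostella vectensis, and the 6 libraries came from every group of a metal exposure experiment. The genes were chosen from 27273 gene models by their levels in CPM (the raw count of a gene divided by the total count of the library, times 1000000). A gene was taken if its mean over the 16 libraries was at least 1 CPM, and if the smallest of its values in Hg 3, Cu 3, Cd 1, Zn 3, Control 1 and Control 2 was at least 2 times the mean of the other 10 libraries and above the largest of them. The high level in those 6 libraries is therefore the choice itself and is given as a description, without a test. What the choice did not use are the identifiers of the genes, the order of libraries within the 6 and within the 10, and the differences between metal and control pools inside each set.

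Nematostella vectensis is a small burrowing estuarine cnidarian with a simple body of an outer and an inner cell layer, kept as a laboratory animal. Mercury and cadmium have no established nutritional role in most animals, whereas copper and zinc are cofactors of many enzymes and are toxic in excess, and cells commonly answer metal ions with proteins that bind thiol-reactive metals or repair damaged proteins. Whole-animal RNA of pooled individuals averages over all cell types of several animals, so that fewer cells of a type and less RNA per cell cannot be told apart.

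The exposed groups were 3 pools each with mercury (HgCl2), copper (CuCl2), cadmium (CdCl2) or zinc (ZnCl2) at 100 µg/L for 24 h, each pool of 5 anemones, and the controls were 4 untreated pools. All animals were 2 to 4 months old and were raised at 18 °C in the dark in artificial seawater of 12.5 ppt. The labels give no strain, sex, feeding state, day or sequencing batch for a pool. Total counts were 6052438 to 8113825 in the 6 libraries and 5494659 to 7955616 in the other 10, so the range of depth overlapped between the sets. The 6 were deeper in the median, at 7364302 against 6051180.5 counts. A gene model with at least 1 count was found 20245 to 20474 times in the 6 and 19930 to 20379 times in the 10, with medians of 20419 and 20097. Pools of one group differed by more than counting error (chi-square per degree of freedom 4.94 to 14.1), so no library repeated another of its own group. Nothing in the labels says whether the pools came from separate cultures, and p-values measure the spread between these pools.

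The files do not pair the gene identifiers with names. Of the 119 identifiers 0 matched a RefSeq table of 38762 genes of assembly jaNemVect1.1, as did 0 of all 27273, so no gene below has a known function here, no marker of a tissue or cell type could be looked up, and no sequence is shown. Genes are named by identifier alone.

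In sum over the 119 genes, Cd 1 had the highest level of the 16 libraries at 1783 CPM. Zn 3 followed at 1278, Cu 3 at 1129 and Hg 3 at 1118 CPM, with Control 1 at 1066 and Control 2 at 1043 CPM. The largest sum among the other 10 libraries was 349 CPM in Cu 1. Cu 2 stood at 241 CPM. The remaining Cd libraries had 272 CPM in Cd 2 and 146 CPM in Cd 3, and the remaining Zn libraries 258 CPM in Zn 1 and 180 CPM in Zn 2. Hg 1 had 180 CPM and Hg 2 had 149 CPM, against 299 CPM in Control 3 and 278 in Control 4. The genes took 0.104% to 0.178% of all counts in the 6 libraries and 0.0146% to 0.0349% in the 10. Exact 95% Poisson intervals, which cover counting error alone, ran from 1750 to 1816 CPM for Cd 1 and from 137 to 154 CPM for Cd 3.

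**Figure D1:**
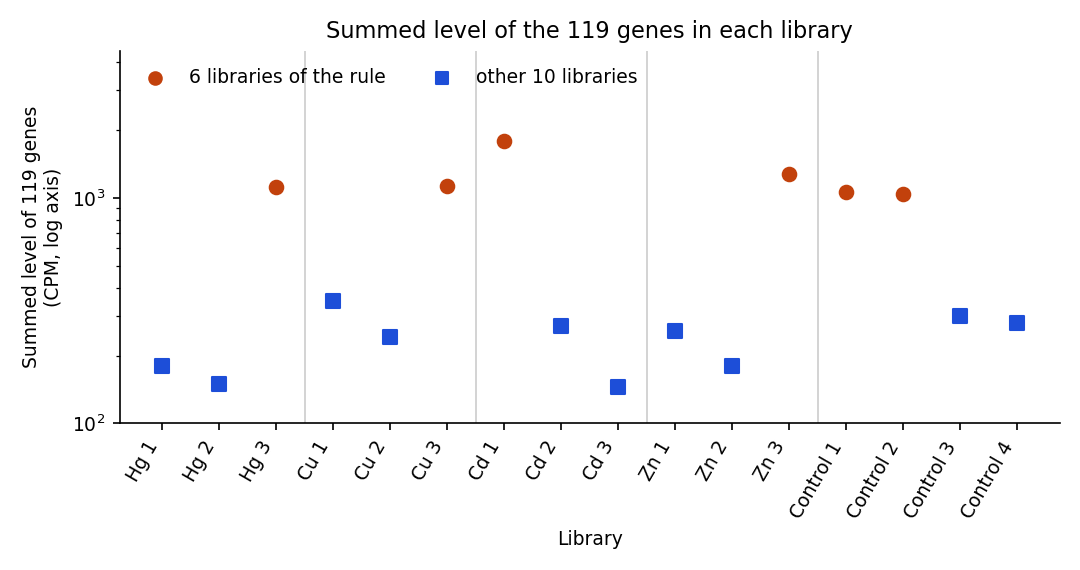
Summed level of the 119 genes in each of the 16 libraries, in CPM on a log axis, by group. Orange circles are the 6 libraries of the rule and blue squares the other 10, and black bars are exact 95% Poisson intervals, mostly hidden by the symbols; the lowest circle is Control 2 at 1043 CPM and the highest square Cu 1 at 349 CPM.

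Every group holds libraries of both sets, and the SD within a group exceeded the mean in Hg, Cd and Zn but not in Cu or Control. The summed level averaged 482 ± 550.5 CPM in Hg (SD, n = 3) and 573 ± 485 CPM in Cu (SD, n = 3). It averaged 733 ± 911 CPM in Cd (SD, n = 3), 572 ± 613 CPM in Zn (SD, n = 3) and 671 ± 442 CPM in Control (SD, n = 4). All 5 groups overlapped in range, as the rule requires, because it places libraries of both sets in every group. The share of high libraries it places in Control is larger than in each metal. The size of the SD relative to the mean depends on this layout, so nothing is read from its contrast between metals and Control.

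The single genes were of low to moderate abundance. Their mean over the 16 libraries ran from 1.05 to 40.6 CPM with a median of 3.65 CPM, against a median of 12.1 CPM over all 16347 gene models that reached 1 CPM. In all 16 libraries together a gene had 116 to 4344 counts. The mean of the 6 libraries exceeded the mean of the 10 by 2.57 to 52 times with a median of 5.38 times. It did so at least 3-fold in 113 genes, at least 5-fold in 64, at least 10-fold in 21 and at least 20-fold in 6. Each of the 119 genes had counts in each of the 6 libraries. In the 10, between 0 and 10 of the genes had no count in a library, 10 of them in Hg 1 and 10 in Hg 2.

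**Figure D2:**
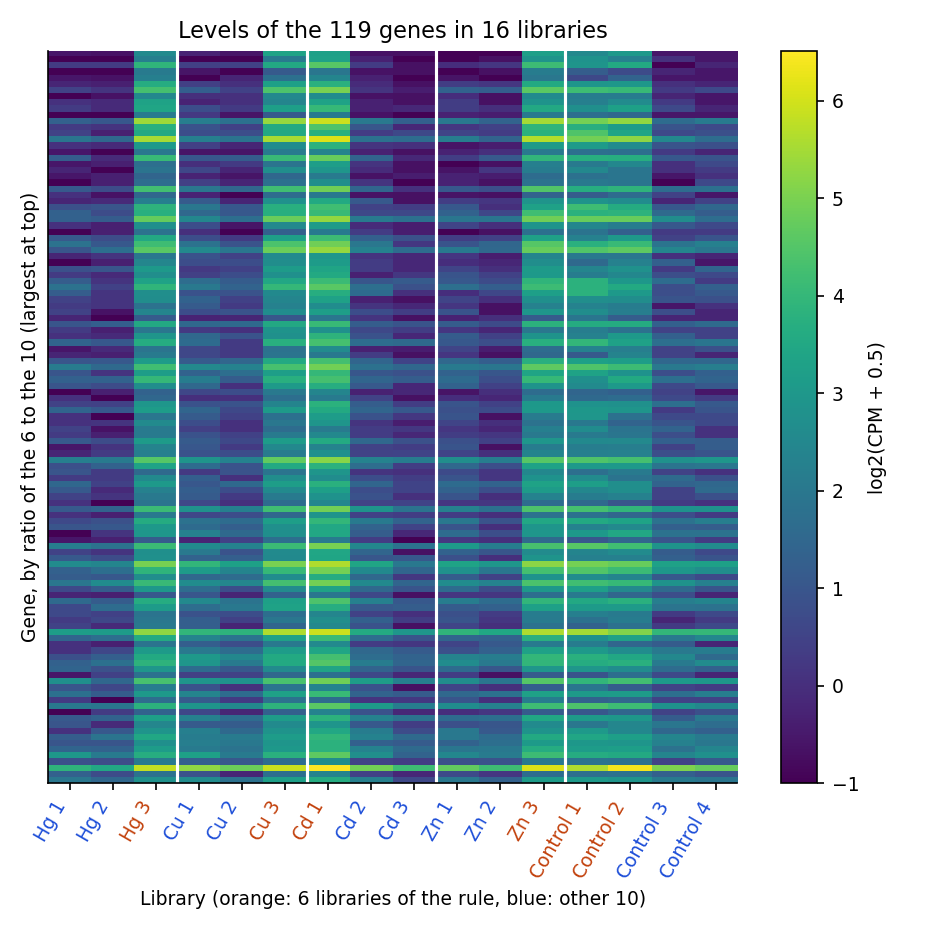
Levels of the 119 genes (1 row each, ordered by the mean of the 6 libraries over the mean of the 10, largest at the top) in the 16 libraries (columns, by group), as log2(CPM + 0.5). The 6 libraries with orange names are brighter in every row, as the rule requires, and Cd 1 is the brightest of them in 103 rows.

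Of the genes of the rule, v1g69880 had the highest mean, at 40.6 CPM. It measured 14.4 CPM in Hg 1, 10.8 in Hg 2 and 56.3 in Hg 3, and 38.1 CPM in Cu 1, 28.1 in Cu 2 and 59.3 in Cu 3. The Cd libraries had 90.8, 29.8 and 17.6 CPM (Cd 1, 2 and 3) and the Zn libraries 25.6, 17.6 and 68.8 CPM (Zn 1, 2 and 3), against 48.5, 83.3, 33.1 and 26.8 CPM in the controls (Control 1 to 4). Every group overlapped the others, and among the controls the pair in the 6 lay above the pair in the 10, both as the rule requires. Its mean was 67.8 CPM in the 6 and 24.2 CPM in the 10, a ratio of 2.8. v1g75091 came next, with 8.55, 8.18 and 38.3 CPM in Hg 1, 2 and 3 and 15, 14 and 48.3 CPM in Cu 1, 2 and 3. It had 61.5, 11.6 and 7.23 CPM in Cd 1, 2 and 3 and 14.7, 10.6 and 47.7 CPM in Zn 1, 2 and 3, against 44.9, 33.2, 15.2 and 15.4 CPM in the controls (Control 1 to 4). The rule itself requires a step between the sets in the controls and in each of the 4 metals. The ratio of the means was 3.79.

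The genes with the largest ratios were close to absent outside the 6 libraries. v1g68330 had 45 counts in Hg 3, 70 in Cu 3, 57 in Cd 1 and 68 in Zn 3, and 40 in Control 1 and 47 in Control 2. The other 10 libraries held 9 counts in all, with 2 in Cu 1, 0 in Zn 1 and in Zn 2, and 1 in each of the remaining 7. Its means were 7.74 CPM in the 6 and 0.149 CPM in the 10, and the ratio of summed counts after scaling to depth was 53.9 (exact 95% interval 28.1 to 118.9, counting error only). v1g155075 had 34 counts in Hg 3, 27 in Cu 3, 58 in Cd 1, 52 in Zn 3, 51 in Control 1 and 27 in Control 2. It had 7 counts in the other 10 libraries, 2 of them in Cd 2, 1 in Zn 2, 3 in Control 3 and 1 in Control 4, and the ratio was 52.8 (exact 95% interval 25.2 to 133, counting error only). Both genes were picked for the largest ratios among genes that the rule had chosen. Their intervals therefore describe counting error and are no support for a difference between the sets. In the 10 libraries 1 count was 0.126 CPM in Zn 2, the deepest, to 0.182 CPM in Hg 1, the shallowest, so the low values of these genes rest on single reads.

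Around the limits of the rule the values ran on without a gap. The genes just inside the minimum mean, v1g77413 and v1g9582, averaged 1.05 CPM each, and the nearest outside 0.985 CPM. The smallest of the 6 was 2.01 times the mean of the 10 in v1g77105 and in v1g69880, and 1.99 and 1.96 times in the nearest genes left out. For v1g76171 and v1g67950 the smallest of the 6 was 1 and 1.04 times the largest of the 10, and in the nearest genes left out 0.989 and 0.967 times. In all, 33 gene models missed the minimum mean alone, 25 the 2-fold condition alone and 4 the gap alone. The same rule turned round, with the largest of the 6 at most 0.5 times the mean of the 10 and below all of them, found 1 gene against the 119. That gene, v1g72311, was named after its values were seen. It averaged 2.33 CPM in the 6 libraries and 8.42 CPM in the 10. By means alone, 206 gene models at 1 CPM or more were at least 2 times higher in the 6 than in the 10, and 85 were at most 0.5 times as high.

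The order of libraries within each set was not fixed by the rule. Among the 6, Cd 1 was the highest library for 103 of the 119 genes and exceeded Zn 3 in 111. Zn 3 exceeded Cu 3 in 87. The remaining neighbours were closer, with Cu 3 above Hg 3 in 63 genes, Hg 3 above Control 1 in 66 and Control 1 above Control 2 in 69, and their sums differed by 1.05 times or less. Among the 10, Cu 1 was the highest for 45 genes, Control 3 for 23 and Control 4 for 19. The lowest was Cd 3 for 34, Hg 2 for 27, Hg 1 for 25 and Zn 2 for 16. In the order of the summed level among the 10, a library exceeded the next in 56 to 72 of the 119 genes, the fewest for Control 4 over Cd 2. The largest step in that sum lay between Cu 2 and Hg 1, at 1.34 times. Cd 2 and Cd 3 stood apart at 272 and 146 CPM, Hg 1 and Hg 2 closer at 180 and 149 CPM with Zn 2 between them, and Control 3 and Control 4 differed by 1.08 times.

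Single genes followed the summed level of the rest within the sets. Across the 10 libraries, the correlation of a gene's log2(CPM + 0.5) with the log2 sum of the other genes of the group had a median of 0.66, was above 0.8 for 24 genes and below 0 for 2. For the other 16228 gene models at 1 CPM or more, the correlation with the same sum had a median of -0.01 and was above 0.8 for 0.456%. Across the 6 libraries the median was 0.83 for genes of the group and 0.01 for the other gene models. The value of 0.83 may largely restate Cd 1, which was the highest of the 6 for 103 genes. Its sum was 1783 CPM, against 1278 CPM in Zn 3, the next library. The correlation without Cd 1 was not computed. These are descriptions over 10 and 6 libraries that share their depth, and counts of these genes in the 10 are sparse.

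Depth was set against the summed level inside each set, in 2 relations. Over the 10 libraries the summed level was lower where the total count was higher (Pearson r = -0.60, permutation p = 0.0652, adjusted over both relations 0.13; Spearman rho = -0.55, permutation p = 0.111, adjusted 0.223), and r was -0.33 without the 2 libraries with the most extreme totals. Over the 6 libraries r was -0.42 (exact permutation p = 0.589, adjusted 0.589) and rho -0.03 (exact permutation p = 1, adjusted 1), and r was -0.20 without the 2 extremes. Neither relation passed 0.05, and the part of depth in the order of libraries was not tested further.

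The identifiers of the genes, which played no part in the choice, clustered. Most gene models in the files carry a number after the prefix v1g, and 117 of the 119 did, from 4654 to 157501. Numbers below 10000 and from 60000 to 79999 held 94 of the 119 genes (79%), although these ranges, drawn after the numbers were seen, held 835 of the 16347 gene models at 1 CPM or more (5.11%). Numbers from 160000 upward held 0 of the 119 genes and 58% of the gene models at 1 CPM or more. Inside the ranges the ratio of the 6 to the 10 varied among the gene models. Of the 835, 146 were at least 2 times higher in the 6 than in the 10, while 648 had a ratio under 1.5. The median ratio of the 835 was 1.02, against 0.938 for the gene models outside the ranges. Outside the ranges 60 of 15512 gene models had a ratio of at least 2, and 15362 had a ratio under 1.5. The gene of the turned-round rule, v1g72311, also had a number in these ranges.

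**Figure D3:**
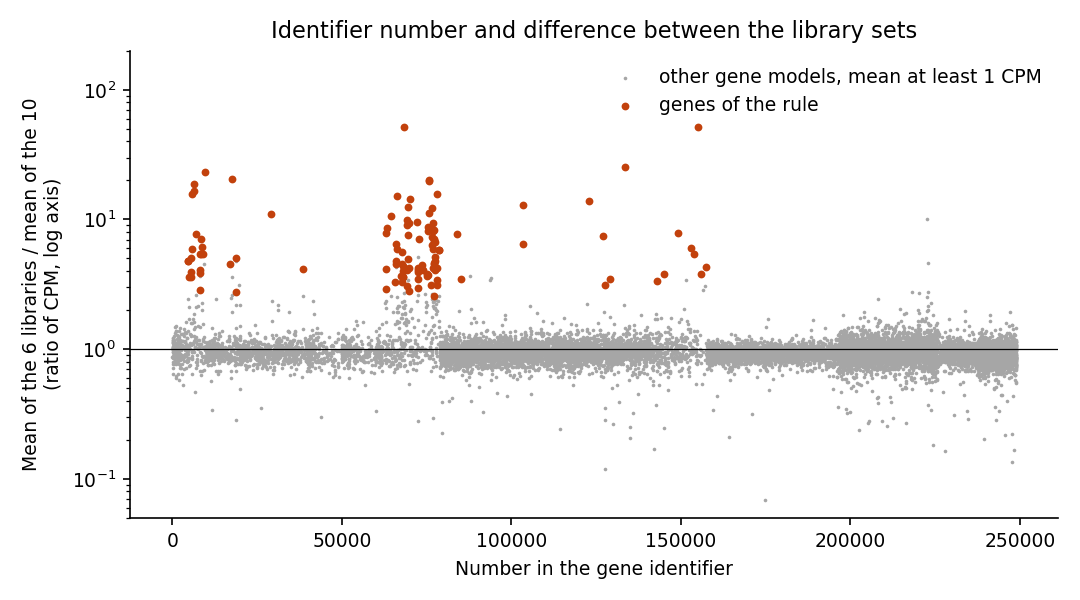
Ratio of the mean CPM of the 6 libraries to the mean of the 10 (log axis) against the number in the gene identifier, for gene models with a mean of at least 1 CPM and a v1g number. Orange points, the 117 genes of the rule with such a number, lie mostly below number 10000 and between 60000 and 79999 and end at number 157501; grey points are the other gene models, most of them near a ratio of 1.

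A further mark was the second identifier that the files give under the header JGI. It was blank for 10 of the 119 genes (8.4%) and for 55 of the 16347 gene models at 1 CPM or more (0.336%), so that 18.2% of these 55 belonged to the group. Among them were v1g68330 and v1g155075. The 10 genes had a median ratio of 13.2 between the 6 and the 10, against 5.03 for the 109 genes with a second identifier. The sources used here do not say what the blank or the number stands for.

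Whether a metal changed these genes was first read from all 16 libraries, each metal against Control and each metal against each other, with edgeR's quasi-likelihood test over 16276 genes and a Benjamini-Hochberg adjusted p under 0.05. All 119 genes passed the filter on low counts, each with 6 libraries in which it was high by choice. Of the 119, 0 were called in each of the 10 comparisons and 0 had an unadjusted p under 0.05 (edgeR), and DESeq2 also called 0. Over all genes 26.6% were called in Hg against Control, 4.2% in Cu, 0.0184% in Cd and 0.00614% in Zn. Between metals, Hg differed from Cu in 14.2% of all genes, from Cd in 24.1% and from Zn in 26.5%. Cu differed from Cd in 2.54% of all genes and from Zn in 3.61%, and 0% were called between Cd and Zn. The rule fixes that each metal has 1 high library of 3 and Control 2 of 4, so nothing is read from the comparisons with Control. The median standard error of a log2 fold change was 1.11 for the 119 genes in Hg against Control and 0.18 over all tested genes, and the biological coefficient of variation between pools had a median of 97.3% for these genes against 14.2% over all. The authors' deposited tables called 0 of the 119 in each metal at an adjusted p under 0.05. They rest on the same libraries, with the same mix of both sets in each group, so this is no separate support. The median fold of the 119 genes over Control was 0.726 in Hg, 0.882 in Cu, 1.09 in Cd and 0.844 in Zn there. Nothing is read from these folds for the same reason. Of all genes with a value, the authors' deposited tables called 9.68% in Hg, 1.41% in Cu, 0.0351% in Cd and 0.0351% in Zn.

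A fit with the library set as a further term compared metals with Control after taking out a step between the sets. For each gene this step was taken as equal in all groups. The summed level was unlike that: it averaged 208.5 CPM in the 10 and 1783 CPM in the 6 (Cd 1 alone) for Cd. For Control it averaged 288.4 and 1054 CPM. The fold changes of this fit thus partly carry differences in the step. The sets were defined from these genes and are not groups of the study, and the term itself was not tested. The median coefficient of variation of the 119 genes was 26% in this fit against 12.4% over all genes, and the median standard error in Hg against Control was 0.39. In Hg against Control 36 genes lay above 0 and 83 below, with a median log2 fold change of -0.22 and a range from -1.13 to 1.24, and 0 were called where 28.6% of all genes were (edgeR). The median over all tested genes was -0.05. The smallest adjusted p was 0.0506 (edgeR), DESeq2 called 3 genes lower, and 3 genes above and 3 below 0 had an unadjusted p under 0.05, which is 5.04% against 39.2% of all genes. In Cu 84 lay above 0 with a median of 0.16 (5.88% of all genes called), and in Zn 66 with a median of 0.03 (0.0184% called), and 0 of the 119 were called in either (edgeR), with 1 gene in Cu and 3 in Zn at an unadjusted p under 0.05 (18.1% and 8.6% of all genes). In Cd 99 lay above 0 with a median of 0.28, and 0 were called, against 0.0123% of all genes (edgeR). An unadjusted p under 0.05 was found for 11 genes in Cd, all above 0, which is 9.24% against 8.95% of all genes. In the other 10 libraries alone, without Cd 1, the direction in Cd turned round, and 56 of the 65 genes that could be tested lay below 0 with a median of -0.46. DESeq2 called 0 of the 119 in Cu, in Cd and in Zn.

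**Figure D4:**
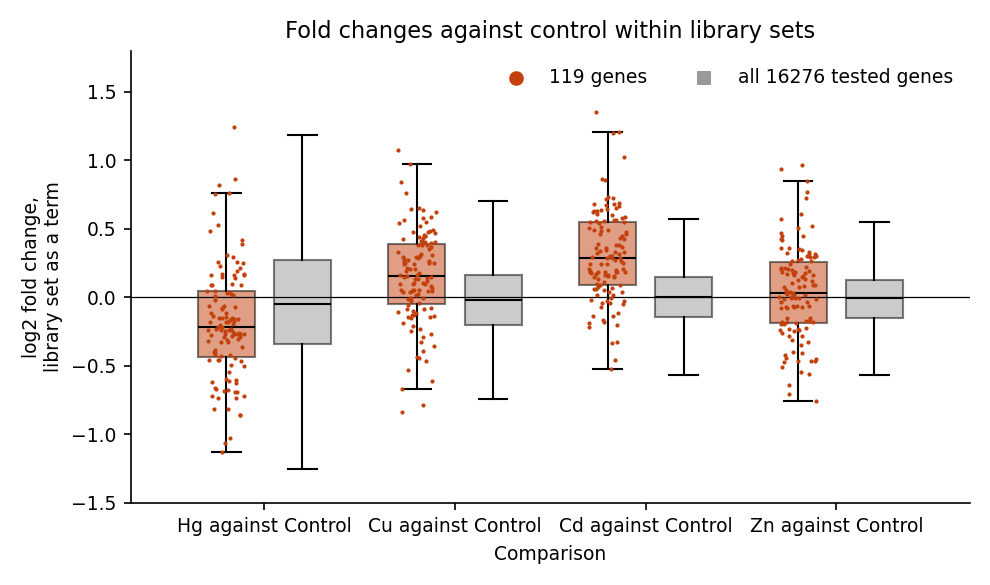
Log2 fold change against Control for each metal in the fit with the library set as a term. Orange boxes and points are the 119 genes and grey boxes all 16276 tested genes; boxes span the quartiles with the median as a line, and whiskers reach the farthest value within 1.5 box lengths. The orange median is -0.22 in Hg and 0.28 in Cd, and 0 of the orange points were called.

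The metals were also compared with each other in this fit, where the rule favours no direction. The log2 difference of Hg from Cd was below 0 in 115 of the 119 genes (54.7% of all tested genes), with a median of -0.46. In the 10 libraries alone it was below 0 in 42 of the 65 genes that could be tested, with a median of -0.29. The remaining genes of the 119 had too few counts there and were tested only through the 6 libraries. Their direction therefore rests largely on Hg 3 against Cd 1, 1 library of each metal. With the set term, 2 were called lower and 0 higher (edgeR), while 11.5% of all tested genes were called lower and 15% higher. The share called was below that over all genes, but the median standard error was 0.41 for the 119 genes and 0.19 over all tested genes. The lower share is therefore not read as a smaller difference in these genes. v1g142908 had 3.64, 3.36 and 13.6 CPM in Hg 1, 2 and 3, against 23.6, 8.14 and 4.08 CPM in Cd 1, 2 and 3. Its log2 fold change between Hg and Cd was -0.76 ± 0.24 (SE, edgeR adjusted p = 0.0264). v1g67741 had 1.64, 2.05 and 8.87 CPM in Hg 1, 2 and 3, against 13.8, 4.52 and 3.02 CPM in Cd 1, 2 and 3, and its log2 fold change was -0.78 ± 0.27 (SE; adjusted p = 0.0419, edgeR). In both genes each Hg library was below each Cd library of the same set, and the groups as a whole overlapped. Both calls ended without Cd 1, the library with the highest summed level, where the adjusted p was 0.171 and 0.175 (edgeR), and also without Cd 2, Hg 1 or Hg 2, and that of v1g142908 without Hg 3. The call of v1g67741 also ended without Zn 2, Zn 3, Control 1 or Control 3, with no filter on low counts and by DESeq2, where the adjusted p was 0.0512 to 0.0819. Without Cd 1 the number called between Hg and Cd was 1, higher in Hg, and without Cd 3 it was 12, all lower in Hg. In the other 5 pairs of metals 0 of the 119 were called (edgeR), with medians of -0.33 for Hg against Cu, -0.23 for Hg against Zn, -0.13 for Cu against Cd, 0.12 for Cu against Zn and 0.21 for Cd against Zn. DESeq2 called 2 in Hg against Cu and 0 in the other 4 pairs. At an unadjusted p under 0.05 these 5 pairs, in the same order, had 7, 1, 2, 0 and 3 genes, where 28.9%, 39.3%, 13.2%, 17% and 4.46% of all genes had one. At the adjusted threshold 16.4%, 29%, 3.25%, 4.45% and 0% of all genes were called.

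The position of a metal relative to the controls was also read inside each of the 2 sets. In Cd 1, 113 of the 119 genes lay above both Control 1 and Control 2, as did 32.3% of all tested genes, while Cd 2 and Cd 3 both lay below Control 3 and Control 4 in 38 genes (20.6% of all) and above them in 3 (19.5% of all). Cd 1 was below both controls of its set in 0 genes (29.6% of all). Zn 3 was above both controls of its set in 79 genes (32.7% of all), and below both in 8 (26.5% of all), and Zn 1 and Zn 2 were below both of theirs in 44 (28.2% of all) and above both in 4 (13.9% of all). Hg 3 was above both controls in 52 (35% of all) and below both in 30 (39.4% of all), and Hg 1 and Hg 2 were below both in 64 (31.9% of all) and above both in 5 (28.7% of all). Cu 3 was above both controls in 50 (28.9% of all) and below both in 32 (33.4% of all), and Cu 1 and Cu 2 above both in 12 (21.9% of all) and below both in 20 (27.1% of all). Each metal has 1 library among the 6, so this difference between the sets has no replicate check and was not tested.

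Inside the 10 libraries alone, 2 pools of each group, 65 of the 119 genes kept enough counts to be tested. In Hg against Control 7 of them were called lower and 0 higher (edgeR, 16074 genes), which is 10.8%, where 22.1% of all genes were called, 9.21% lower and 12.8% higher. The median log2 fold change was -0.68, against -0.0027 over all genes. v1g77982 had 0 CPM in Hg 1 and 0.584 CPM in Hg 2, against 3.04 and 3.08 CPM in Control 3 and 4, and the largest fold of the 7, a log2 value of -3.14 ± 0.89 (SE; adjusted p = 0.0253, edgeR). Hg 1 had no count of this gene and Hg 2 had 4, so the size of its fold is poorly fixed. v1g67299 had 0.546 CPM in Hg 1 and 1.02 CPM in Hg 2, against 3.57 and 3.99 CPM in Control 3 and 4, with a log2 fold change of -2.17 ± 0.48 (SE; adjusted p = 0.00582, edgeR). The most abundant genes, v1g69880 and v1g75091, were also among the 7, with log2 fold changes of -1.23 ± 0.31 and -0.83 ± 0.24 (SE; adjusted p = 0.0193 and 0.0246, edgeR). In these 4 genes both Hg libraries lay below both controls. In Hg against Cu 7 were lower, with the largest fold in v1g77982 and v1g4868, where 11.2% of all genes were called, 3.51% lower and 7.73% higher. In Hg against Cd 1 was lower, v1g73714, where 18.1% of all genes were called, 6.22% lower and 11.9% higher. In Hg against Zn 1 was lower, v1g4868, where 21.7% of all genes were called, 8.46% lower and 13.2% higher. In these 3 comparisons 0 of the 65 were called higher. In the remaining comparisons 0 of the 65 were called (edgeR), where the shares of all genes called were 5.61% for Cu, 1.06% for Cd and 1.56% for Zn against Control, and 1.28%, 1.87% and 0% for Cu against Cd, Cu against Zn and Cd against Zn. At an unadjusted p under 0.05 those comparisons, in the same order, had 0, 6, 2, 9, 0 and 2 genes, against 18.5%, 10.2%, 10.6%, 10.7%, 13.5% and 3.52% of all genes. The 6 genes in Cd against Control were all lower, and 56 of 65 lay below 0. The 9 in Cu against Cd were all higher in Cu, and 60 of 65 lay above 0 with a median of 0.51. The fit with the library set as a term had a median of -0.13 there, over all 119 genes. In Zn against Control 49 of 65 lay below 0 with a median of -0.29, against a median of 0.03 over the 119 with the set term. In Cd against Zn 41 of 65 lay below 0 with a median of -0.14, against 0.21 over the 119 with the set term. The medians of the 2 fits are thus over unlike sets of genes.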

How the data were processed

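Whole-animal RNA of 16 pools was sequenced from TruSeq mRNA libraries, per the labels' protocols. STAR, Partek and DESeq appear, without version or role, per the submitters' processing notes. Their genome build was not given in the sources used. The authors deposited 4 tables, 1 per metal, of raw whole-number counts per gene model, and the 4 hold identical control counts. Further columns, per the file headers, hold a fold (the ratio of base means, metal over control) and an adjusted p-value, which in the Cd table exceeds 1 in places and was treated as a deposited score.

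Tables were joined on the identifier. CPM used column totals of 5494659 to 8113825. Tests used R 4.3.3 and edgeR 4.0.16 on genes kept by filterByExpr, with TMM factors (0.905 to 1.05), robust quasi-likelihood fits over all libraries and Benjamini-Hochberg adjustment over all genes tested, at 0.05. A standard error is the log2 fold change over the square root of F. Other fits are compared in the closing section, among them DESeq2 1.42.0. The fits were tried on simulated data, with an equal step between the sets in the genes of the rule and recovery counted over all genes. This does not check the fits for these genes, whose step differed between groups. Exact intervals and permutation tests used scipy 1.17.1.

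The genes, the library sets and the comparisons were chosen with earlier results of these data known. With no names available, genes were named by rule: the 2 with the highest mean, the 2 with the largest ratio of the 6 to the 10, the 2 just inside each limit, and at most 2 called genes each way per comparison with the largest fold. v1g69880 and v1g75091 are given again in the 10 libraries because they had been named. Lists of markers could not be used without names.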

Additional observations from a re-analysis of the deposited data

Results flagged for a closer look

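In the direct contrast of Hg with Cd, with the library set as a term, 2 genes were called, v1g142908 and v1g67741. Neither was called against Control in this fit. The edgeR adjusted p was 0.0547 in Hg and 0.9 in Cd for v1g142908, and 0.793 and 0.435 for v1g67741. In the 10 libraries alone neither was called between Hg and Cd (edgeR adjusted p = 0.171 and 0.146). The log2 fold changes of Hg against Cd were -0.76 for v1g142908 and -0.78 for v1g67741 (edgeR adjusted p = 0.0264 and 0.0419), and each Hg library lay below each Cd library of the same set. These 2 are 1.68% of the 119 genes, where 26.5% of all tested genes were called. Both calls ended when Cd 1, Cd 2, Hg 1 or Hg 2 was left out. Over the alternatives tried the adjusted p ran from 0.00385 to 0.171 for v1g142908 and from 0.0252 to 0.175 for v1g67741 (edgeR and DESeq2).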

How the results depend on the processing

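The rule gave 119 genes, 115 to 130 when a library was left out (at least 113 of them among the 119), 127 with TMM-scaled library sizes and 126 with median-ratio size factors (all 119 included in both), 42 with a minimum mean of 5 CPM and 77 with a minimum fold of 3. Without the set term 0 genes were called in 216 of 220 combinations of comparison and alternative. The exceptions were the 10 libraries alone, with 7 in Hg against Control, 7 in Hg against Cu, 1 in Hg against Cd and 1 in Hg against Zn. All other alternatives without the set term kept libraries of both sets in the fit, which widens the spread of these genes by the rule. Their 0 calls therefore do not show that the metals left these genes unchanged. With the set term Hg against Control, where 0 were called, gave 3 by DESeq2, 1 with DESeq2 size factors, 2 with only the groups compared and 0 to 5 without single libraries (5 without Hg 3, 4 without Cd 3 and 4 without Control 2). Hg against Cu gave 2 by DESeq2, 1 with only the groups compared and 0 to 2 without single libraries. Hg against Cd, with 2 called, gave 1 without a filter on low counts, 5 with only the groups compared and 0 to 12 without single libraries. Hg against Zn gave 1 with only the groups compared and 0 to 1 without single libraries. The cause was not tested. Equal replicate numbers were not shown to pair the libraries: the deviations of same-numbered libraries from their group means had correlations of -0.269 to 0.394 in 30 pairs. Of the 7 above 0.1, 4 were the same-numbered pairs inside the 6 libraries (Hg 3, Cu 3 and Zn 3 with each other, 0.238 to 0.394, and Cd 1 with Control 1, 0.307), and the other 3 carried number 2. With the replicate number as a block and the set term, 2 genes were called in Hg against Control, 1 in Cu against Control and 1 in Hg against Cd, and without the set term 0 in each comparison. In the 10 libraries the counts of these genes limit the precision: 54 of the 119 could not be tested there.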
